A study of Mus musculus with 12 samples.

Results

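Protein kinases of the serine/threonine class were read through the m6A peaks on their mRNAs. The genes were taken by name alone: every gene listed in any of 4 deposited peak tables whose symbol begins with Map2k, Map3k, Map4k, Mapk, Cdk, Stk, Nek, Dyrk, Mark, Lats, Pim, Plk, Ulk or Wnk and a number, or with Camk or Prkc. This gave 61 genes of the 6074 gene names listed in all. Of them, 55 are named for kinases and 6 for proteins that bind a kinase or carry its name: Cdk5r2, Cdk5rap2, Mapk1ip1, Mapk1ip1l, Mapk8ip2 and Mapk8ip3. Plk1s1, listed under an older symbol, also encodes a kinase substrate, not a kinase. The name rule uses no measured value beyond the presence of a peak, but the families were chosen with earlier results of these data known.

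The cells were J1 mouse embryonic stem cells, kept with LIF on irradiated fibroblast feeders. Lentiviral shRNA against Mettl14, shRNA against Mettl3, or a scramble control shRNA was introduced, and stable lines were selected with puromycin. Fragmented poly(A) RNA was precipitated with an anti-m6A antibody, in 2 libraries for each of the 3 groups. The 6 no-antibody libraries have no columns of their own and were not analysed here. The design text gives 1 biological replicate per library. Whether the spread between the 2 libraries of a group is biological or technical could not be told. Each of the 4 tables sets 1 knockdown library against 1 scramble library: Mettl14 and Mettl3 knockdown set 1 share a scramble library, and so do Mettl14 and Mettl3 knockdown set 2. No expression value was at hand, so neither the knockdown of the targeted genes nor the stem cell and feeder markers could be checked.

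m6A is laid down on mRNA in the nucleus by a complex in which METTL3 is the catalytic subunit and METTL14 the RNA-binding partner. It falls mostly in long exons and near stop codons, and in stem cells it is known to shorten the life of many transcripts. Kinases of these families carry signals from the membrane to the nucleus (the MAPK cascade), drive the cell cycle and transcription (Cdk, Plk, Nek), restrain growth (Stk4, Lats and Stk38 of the Hippo pathway) or answer calcium and lipids (Camk, Prkc).

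A peak was called lost where a scramble peak had no overlapping knockdown peak on its strand, new where a knockdown peak had no overlapping scramble peak, and shared otherwise. Overlapping peaks of a gene were merged over the 6 libraries into 92 sites. Of these, 25 held a peak in all 6 libraries, 8 in 5 libraries and 20 in 1 library. A peak stood in both scramble libraries at 55 sites. No knockdown library held a peak at 10 of those 55. The 10 sites lie in Camk2b, Cdk10, Cdk12, Cdk17, Dyrk1b, Map3k10, Map3k14, Prkcz, Wnk2 and Wnk3-ps. A further 11 sites held a peak in a single scramble library and in no knockdown library, and 10 sites held none in a scramble library. The shares of all genes' sites in these classes are not given here. Peak by peak, 17.2% of kinase-family peaks in both scramble libraries were lost in all 4 tables, against 9.81% of all such peaks.

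The sequences below are shown because they stand for the opposite ends of that range. Each is the GGACT nearest to the summit of the site's peak with most tags, with 8 bases on either side, in GRCm38 (mm10) coordinates and read 5′ to 3′ along the mRNA from GENCODE M21 transcripts. GGACT is a common form of the m6A consensus, with the methylated A in its middle, and the capitals mark it. The 8 sites that follow had a peak in both scramble libraries and in no knockdown library.
Camk2b, 3′ UTR, chr11:5971021-5971041, minus strand: tgaagagaGGACTgggcagag
Cdk10, 3′ UTR, chr8:123232218-123232238, plus strand: ggattggtGGACTgagagata
Cdk12, coding sequence, chr11:98249921-98249941, plus strand: tccaaacaGGACTtacggaaa
Cdk17, 3′ UTR, chr10:93239667-93239687, plus strand: tcagccatGGACTcagagctg
Dyrk1b, coding sequence, chr7:28186803-28186823, plus strand: agccctccGGACTcggatgac
Map3k14, 3′ UTR, chr11:103220098-103220118, minus strand: ggaagaagGGACTgtcttgac
Wnk2, coding sequence, chr13:49061314-49061334, minus strand: agcagcagGGACTgccatgca
Wnk3-ps, coding sequence, chrX:151315034-151315054, plus strand: aatctgggGGACTcttccagc

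The other 2 of the 10 sites, in Map3k10 and Prkcz, hold no GGACT on the exons of the transcript used. The 8 sites that follow had a peak in all 6 libraries.
Camk2g, 3′ UTR, chr14:20736348-20736368, minus strand: ctaggagtGGACTtcgtcaga
Dyrk1a site 1, coding sequence, chr16:94691971-94691991, plus strand: aacaccttGGACTttggacag
Dyrk1a site 2, 3′ UTR, chr16:94692823-94692843, plus strand: ggggatcaGGACTctcctatc
Map3k3, 3′ UTR, chr11:106154338-106154358, plus strand: tgccactgGGACTcaaagcca
Map3k9 site 1, coding sequence, chr12:81722246-81722266, minus strand: agcaacctGGACTcctgcttt
Plk2, 3′ UTR, chr13:110400372-110400392, plus strand: ggcctgctGGACTgctggaac
Plk4, coding sequence, chr3:40805128-40805148, plus strand: ctgactttGGACTagcaacgc
Stk35, coding sequence, chr2:129810734-129810754, plus strand: cagactttGGACTgagcaagg

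Every window holds the same core by construction. The 8 windows shown from sites in all 6 libraries are a selection and lie at most 65 nt from the summit. Windows of such sites that are not shown lie up to 1547 nt from it. The 8 windows from sites in the scramble libraries only lie between 16 and 190 nt from it. The Cdk10 window lies inside the scramble peak of set 2 but just past the end of that of set 1. Of the 23 sites in all 6 libraries that were searched (those on chromosome 18 or off the exons of the transcript used were left out), 22 held at least 1 GGACT, with a median of 2 per site. Of the 10 sites in the scramble libraries only, 8 held 1 or more, again with a median of 2. A match is a description of the letters and marks no measured methylated base, since peaks are far wider than a motif.

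The share of kinase peaks lost was near that of all genes in each table, except in Mettl14 knockdown set 2, where it was higher by less than its interval. In Mettl14 knockdown set 1, 29 of 78 scramble peaks were lost (37.2%, 95% Wilson interval 27.3 to 48.3%), against 39.0% of all gene-assigned scramble peaks. In Mettl14 knockdown set 2, 34 of 67 were lost (50.7%, 39.1 to 62.3%), against 41.2% of all, a value inside the interval. In Mettl3 knockdown set 1, 32 of 78 were lost (41.0%, 30.8 to 52.1%), against 41.0% of all. In Mettl3 knockdown set 2, 26 of 67 were lost (38.8%, 28.0 to 50.8%), against 36.6% of all. The intervals cover counting error only, and peaks of a gene are not independent of each other. The RNA came from bulk cultures, so fewer cells with a peak and a weaker peak per cell cannot be told apart.

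New peaks were fewer than lost ones in each table. In Mettl14 knockdown set 1, 4 of 54 knockdown peaks were new (7.41%, against 15.2% of all gene-assigned knockdown peaks), and in Mettl14 knockdown set 2, 8 of 39 (20.5%, against 26.5%). In Mettl3 knockdown set 1, 7 of 55 were new (12.7%, against 10.8%), and in Mettl3 knockdown set 2, 8 of 47 (17.0%, against 23.7%). The background of 15.2% lies within the interval of the kinase share in Mettl14 knockdown set 1, which ran from 2.92 to 17.6%.

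**Figure D1:**
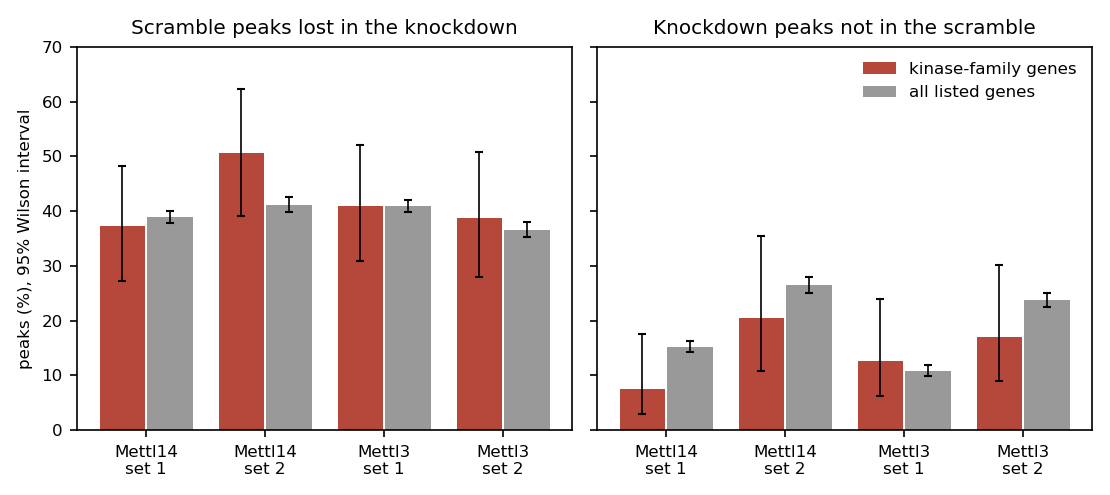
Percent of scramble peaks lost (left) and of knockdown peaks that are new (right) in the 4 tables, for peaks of the 61 kinase-family genes (red) and of all listed genes (grey), with 95% Wilson intervals as bars. The kinase intervals hold the grey value in each pair, and the highest kinase share lost is 50.7% in Mettl14 knockdown set 2.

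Shared kinase peaks moved with the whole table. In the authors' deposited tables the median log2 change of shared kinase peak pairs, knockdown over scramble, was -0.06 over 51 pairs in Mettl14 knockdown set 1 and -0.68 over 33 pairs in Mettl14 knockdown set 2. It was 0.12 over 49 pairs in Mettl3 knockdown set 1 and -1.01 over 42 pairs in Mettl3 knockdown set 2. The median over all gene-assigned pairs of the authors' deposited tables was -0.07, -0.60, 0.20 and -0.91 in the same order of tables. Kinase pairs were lower in 29 of 51 (56.9%, against 55.5% of all pairs) in Mettl14 knockdown set 1, in 28 of 33 (84.8%, against 86.2%) in Mettl14 knockdown set 2, in 22 of 49 (44.9%, against 35.7%) in Mettl3 knockdown set 1 and in 41 of 42 (97.6%, against 93.9%) in Mettl3 knockdown set 2.

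These levels lean on the authors' scaling, in which each knockdown enrichment was multiplied by a constant for its table: 0.906 and 0.777 for Mettl14 knockdown, 1.00 and 0.609 for Mettl3 knockdown. Without the constant the kinase medians were 0.08 and -0.32 for Mettl14 knockdown and 0.12 and -0.29 for Mettl3 knockdown. With the median of all shared pairs of a table set to 0 they were 0.00, -0.09, -0.10 and -0.09. A single shared peak lower in set 2 as deposited may therefore differ little from the median of its table, and the values given below are as deposited unless said otherwise.

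**Figure D2:**
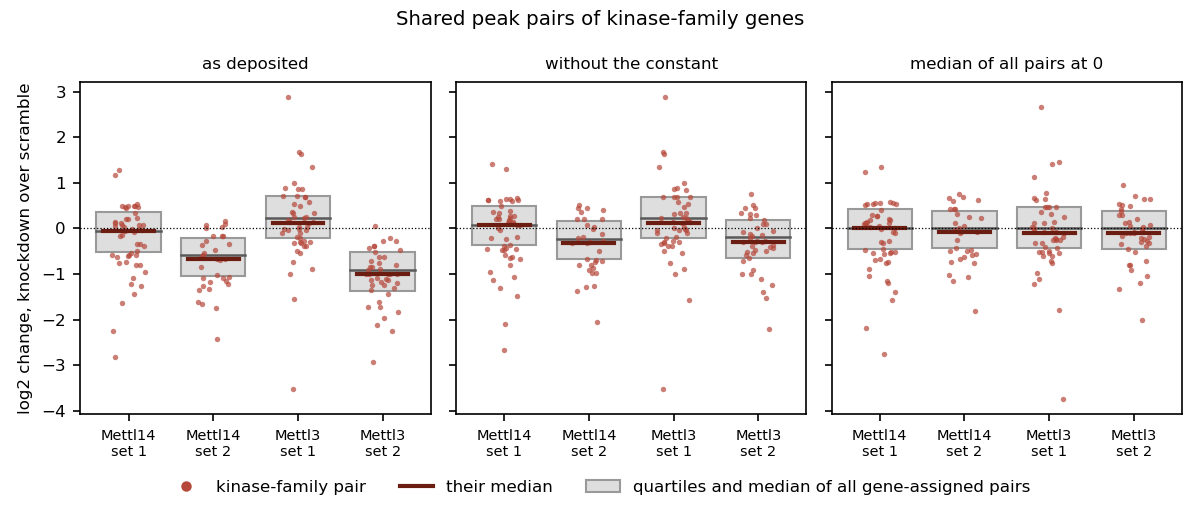
Log2 change of each shared kinase-family peak pair (points) with their median (dark line), by table, beside the quartiles and median of all gene-assigned pairs (grey box), as deposited (left), without the table's constant (middle) and with the median of all pairs at 0 (right). The kinase medians run from -1.01 to 0.12 as deposited and from -0.10 to 0.00 with the table median at 0, each inside the grey box.

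By gene, a transcript was called lower in a table where all its peaks were lost or less enriched, and higher where all were new or more enriched. Kinase-family genes were lower in 34 of 57 (59.6%, against 57.8% of all listed genes) in Mettl14 knockdown set 1 and in 39 of 50 (78.0%, against 70.6%) in set 2. They were lower in 30 of 58 (51.7%, against 49.6%) in Mettl3 knockdown set 1 and in 44 of 51 (86.3%, against 75.6%) in set 2. Higher were 14 (24.6%, against 27.4%) and 6 (12.0%, against 19.7%) after Mettl14 knockdown, and 13 (22.4%, against 34.7%) and 5 (9.8%, against 16.0%) after Mettl3 knockdown. Of the genes listed in both sets, 21 of 48 were lower in both after Mettl14 knockdown (41.8% of all such genes were) and 24 of 49 after Mettl3 knockdown (33.5% of all were). Of the 46 genes listed in all 4 tables, 15 were lower in each, against 25.0% of all genes listed in all 4, and none was higher, against 2.29%. The 15 were Camk2b, Cdk10, Cdk17, Cdk19, Cdk9, Dyrk1b, Map2k3, Map2k4, Map3k13, Map3k2, Map3k3, Mapk8ip3, Prkcz, Stk38l and Wnk3-ps. The 2 tables of a set share their scramble library, so these 4 calls are not 4 independent ones.

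**Figure D3:**
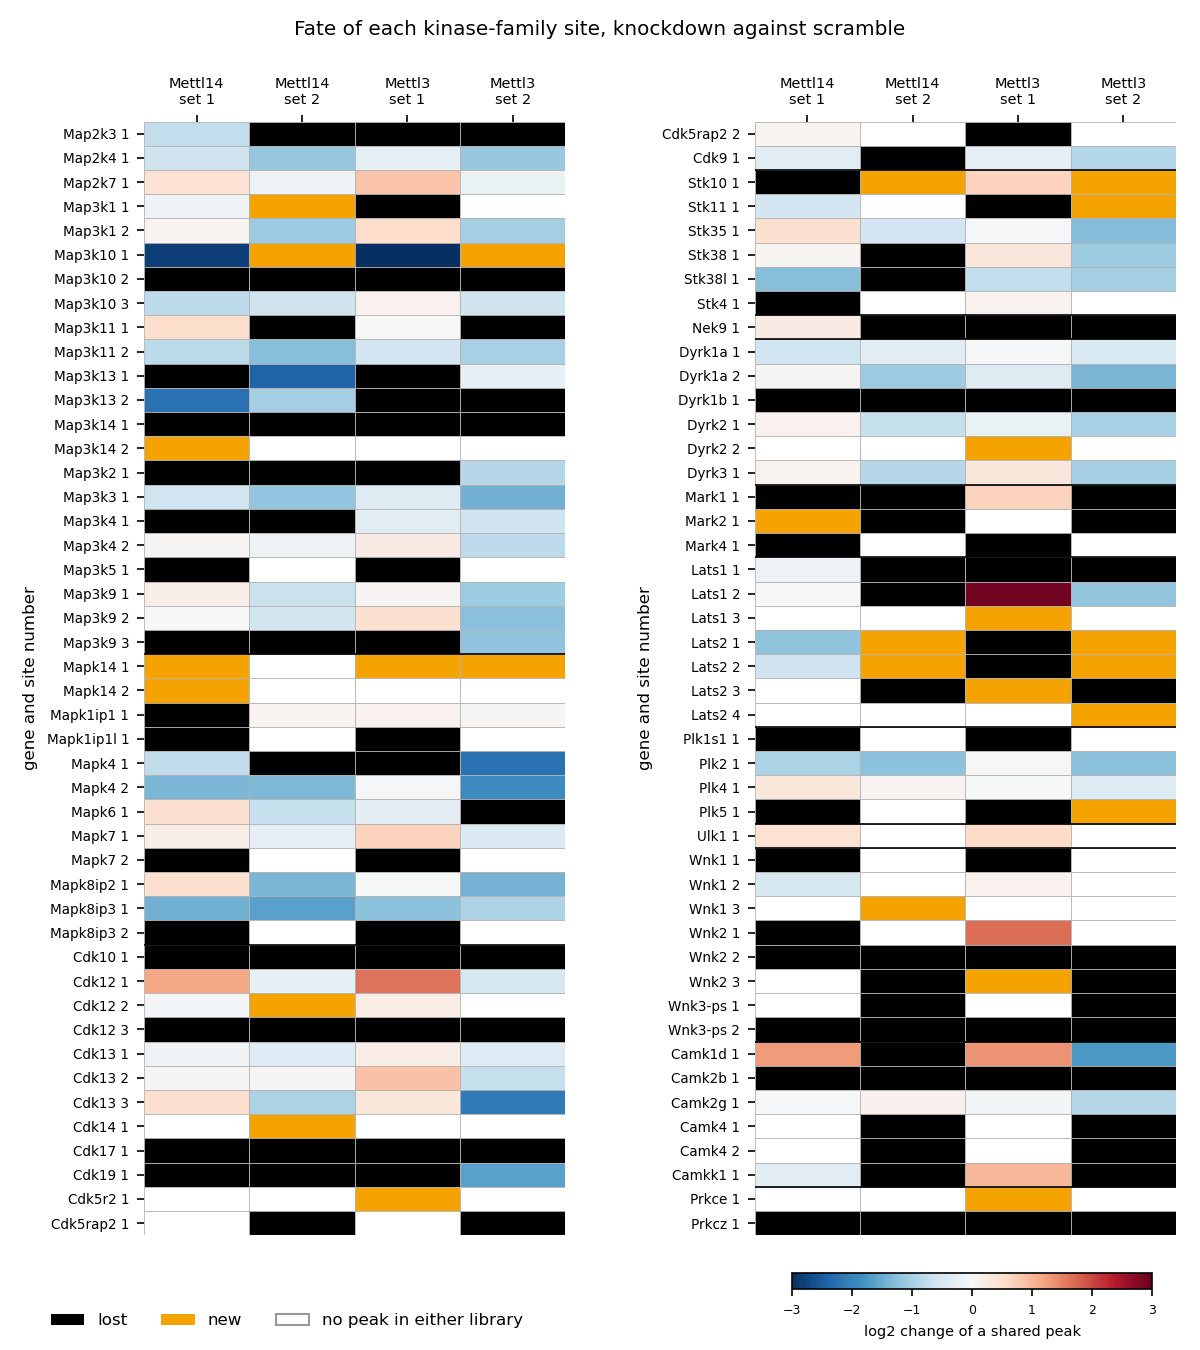
Each of the 92 kinase-family sites (rows, grouped by family) in the 4 tables of knockdown against scramble (columns): lost in black, new in orange, no peak in either library in white, and shared peaks coloured by their median log2 change as deposited (blue lower, red higher in the knockdown; a site with both a lost and a shared peak takes the shared colour). Black across a row marks the 10 sites lost in all 4 tables, and the set 2 columns are bluer than the set 1 columns.

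Peaks found in both scramble libraries were followed through all 4 tables. Of the 78 kinase-family scramble peaks of set 1, 58 overlapped a scramble peak of set 2 (74.4%, against 61.9% for other listed genes). Of these 58, 10 were lost in all 4 tables (17.2%, against 9.81% of all such peaks) and 27 were kept in all 4 (46.6%, against 51.8%). The 10 lost peaks had a median width of 593.5 nt and a median fold enrichment of 19.9, while the 27 kept ones had a median width of 860 nt and 13.0. Over other listed genes the lost peaks were 479 nt and the kept ones 877 nt wide. No test was made of any of these shares.

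The MAPK cascade gave the most members. It passes a signal from MAP3K to MAP2K to MAPK, and 13 of the 32 annotated Map2k, Map3k and Map4k symbols and 8 of the 18 Mapk symbols were listed. No Map4k gene was among them. The upper tiers held 21 scramble peaks in set 1 and 18 in set 2. Of these, 7 and 7 were lost after Mettl14 knockdown (33.3 and 38.9%, against 39.0 and 41.2% of all), and 9 and 5 after Mettl3 knockdown (42.9 and 27.8%, against 41.0 and 36.6% of all). In set 2 every shared pair of these tiers was lower in the authors' deposited tables, 11 of 11 after Mettl14 knockdown and 13 of 13 after Mettl3 knockdown, where 86.2% and 93.9% of all pairs were. These counts rest on the scaling: 9 and 9 pairs were lower without the constant, and 8 and 7 with the table medians at 0.

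Over all families, the 4 knockdown enrichments lay below both scramble ones at 4 of the 25 sites called in all 6 libraries, taking the highest peak where a library had several at a site: in Cdk13, Map2k4, Map3k11 and Map3k3 (16.0%, against 13.2% of all 2136 such sites). They lay above both scramble ones at none, against 0.702% of all. Without the constant the same 4 genes held the sites below (16.0%, against 10.2%), and 3 sites lay above, in Cdk12, Map2k7 and Plk4 (12.0%, against 7.77%). With the table medians at 0 the sites below were in Cdk13, Map3k11, Map3k3 and Plk2 (16.0%, against 10.5%), and those above in Cdk12, Map2k7, Mapk7 and Plk4 (16.0%, against 11.6%). Of these genes Cdk12, Cdk13 and Plk4 had several peaks in a library. The Cdk13 site took its scramble values from a 5′ UTR peak, so the values may compare different stretches. At the coding peak beside it, the deposited log2 changes in set 1 were 0.50 after Mettl14 knockdown and 0.89 after Mettl3 knockdown. In set 2 they were below 0 with both knockdowns. At the 18 sites with 1 peak in each library, an alternative chosen after seeing the data, 3 lay below in each scaling (16.7%, against 13.9, 10.8 and 11.1% of all such sites) and none, 1 and 2 above (against 0.529, 7.76 and 11.4%). Map3k11 (MLK3, an activator of JNK) was among the sites below in all 3 scalings, with 7.42 and 5.03 after Mettl14 knockdown and 8.93 and 6.08 after Mettl3 knockdown, against 13.0 and 12.2 in scramble, at its peak over the stop codon in the authors' deposited tables.

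At the top of the cascade, Map3k3 (MEKK3, which acts upstream of the p38 and ERK5 pathways) held a single 3′ UTR site with a peak in all 6 libraries. Its scaled fold enrichment over input in the authors' deposited tables was 12.8 and 6.79 after Mettl14 knockdown and 14.8 and 5.70 after Mettl3 knockdown, against 19.3 and 15.4 in scramble (sets 1 and 2). All 4 knockdown values lie below both scramble values. The authors' deposited tables give log2 changes of -0.59, -1.18, -0.39 and -1.43, which stay below 0 with the median of all shared pairs at 0, at -0.53, -0.58, -0.61 and -0.52. Map2k4 (MKK4, an activator of JNK and p38) behaved alike at its own 3′ UTR site, with 7.64 and 6.54 after Mettl14 knockdown and 9.65 and 6.64 after Mettl3 knockdown, against 11.7 and 14.6 in scramble, in the authors' deposited tables. Its groups did not overlap as deposited. With the table median at 0 the log2 changes stay below 0, at -0.56, -0.57, -0.50 and -0.23, but the knockdown and scramble values then overlap.

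Map2k3 (MKK3, an activator of p38) kept its 3′ UTR peak only in Mettl14 knockdown set 1. The authors' deposited tables give 8.20 there, at a false discovery rate of 9.34%, against 13.6 and 12.8 in scramble, on 110 and 108 tags. Map3k2 (MEKK2) kept its coding peak only in Mettl3 knockdown set 2, with 12 tags, against 25 tags in either scramble library in the authors' deposited tables. The direction of that remaining peak depends on the scaling, with a log2 change of -0.85 as deposited and 0.07 with the table median at 0. Map3k13 (LZK, an upstream kinase of JNK) held a pair of narrow sites, each found in both scramble libraries and in 2 knockdown libraries. Its coding site was lost in set 1 of both knockdowns (in Mettl3 knockdown set 2 its log2 change of -0.28 becomes 0.63 with the table median at 0), and its 3′ UTR site was lost in both sets of Mettl3 knockdown. Tags there were few, at most 29 in any peak with a tag count in the authors' deposited tables.

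Map3k14 (NIK, the kinase of the non-canonical NF-kappaB pathway) lost its 3′ UTR peak in all 4 tables. That peak had 46 and 44 tags and a fold enrichment of 36.2 and 334 in the scramble libraries in the authors' deposited tables, at a false discovery rate of 0.31 and 0.27%. A separate coding peak on 7 tags was listed as new in Mettl14 knockdown set 1, so the gene counts as neither lower nor higher there. Map3k10 (MLK2, an activator of JNK) showed all outcomes side by side. Its coding site 2 was lost in all 4 tables, from 28 and 32 scramble tags, and its coding site 3 was called in all 6 libraries. At site 1, over the stop codon, the authors' deposited tables give log2 changes of -2.82 and -3.52 in set 1, where the scramble enrichment was 171, while in set 2 the scramble library held no peak and both knockdown peaks counted as new. The knockdown libraries differed far less among themselves there, with 24.3 and 21.8 for Mettl14 and 14.9 and 10.8 for Mettl3 in the authors' deposited tables.

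Map3k9 (MLK1) had the most scramble peaks of these tiers, at 3 sites. Sites 1 and 2, near the stop codon and in the coding sequence, were called in all 6 libraries. Site 1 had 26.1 and 10.8 after Mettl14 knockdown and 23.1 and 8.15 after Mettl3 knockdown, against 22.7 and 17.2 in scramble, in the authors' deposited tables. The set 2 values are the lower ones in both knockdowns, and with the table medians at 0 the log2 changes there were -0.07 and -0.16. Site 3, farther up the coding sequence, was lost in Mettl14 knockdown sets 1 and 2 and in Mettl3 knockdown set 1, and had a log2 change of -1.20 in Mettl3 knockdown set 2 in the authors' deposited table. Map3k4 (MEKK4) divided by knockdown at its 3′ UTR site 1, which was lost in both sets after Mettl14 knockdown and kept in both after Mettl3 knockdown, at log2 changes of -0.33 and -0.63 in the authors' deposited tables. The -0.63 of set 2 lies above the median of all shared pairs there, -0.91, so its sign depends on the scaling. The share of all sites with such a split was not counted. Its coding site 2 was called in all 6 libraries, at enrichments between 3.86 and 7.42.

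Among the MAP kinases and their scaffolds, 1 gene of the 6 listed in all 4 tables was lower in each (against 25.0% of all), and 1 gene had a new peak in 3 tables. Mapk8ip3 (JIP3, a JNK scaffold) had 48.3 and 10.5 after Mettl14 knockdown and 71.6 and 17.0 after Mettl3 knockdown at its site 1, against 132 and 32.1 in scramble, in the authors' deposited tables. The 71.6 is the higher of 2 peaks and rests on 11 tags, while the other had 44.8 on 48 tags. Each knockdown library was below the scramble library of its own set, although set 1 values exceeded set 2 values throughout. That site also lies on an exon of Eme2 on the same strand and outside the exons of the transcript used for Mapk8ip3, so the peak cannot be given to either gene with certainty. Mapk14 (p38 alpha) had no scramble peak in either set. Its 3′ UTR site 1 was new in both sets after Mettl3 knockdown, on 113 and 93 tags, and in Mettl14 knockdown set 1, on 117 tags, at enrichments between 5.78 and 9.92 in the authors' deposited tables. This was the only kinase-family site with a new peak in 3 tables. The share of all sites with a new peak in 3 tables was not counted. The set 1 tables of both knockdowns share a scramble library, so their calls rest on the same missing scramble peak. The site was chosen after its values were seen.

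Mapk4 (ERK4, an atypical MAP kinase) had the most scramble peaks of the Mapk group. Its site 1, at the end of the coding sequence, was lost in Mettl14 knockdown set 2 and Mettl3 knockdown set 1, and had log2 changes of -0.76 and -2.24 in Mettl14 knockdown set 1 and Mettl3 knockdown set 2 in the authors' deposited tables. Its site 2 was called in all 6 libraries, as 2 peaks in both scramble libraries, the narrower in the 5′ UTR and the wider in the coding sequence, and as 2, 2, 2 and 1 peaks in the knockdown libraries. Mapk7 (ERK5) kept its broad coding site in all 6 libraries, with 8.15 and 5.25 after Mettl14 knockdown and 11.5 and 4.75 after Mettl3 knockdown, against 7.05 and 6.40 in scramble, in the authors' deposited tables. Those groups overlap, the set 1 knockdown values being above scramble and the set 2 values below.

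**Figure D4:**
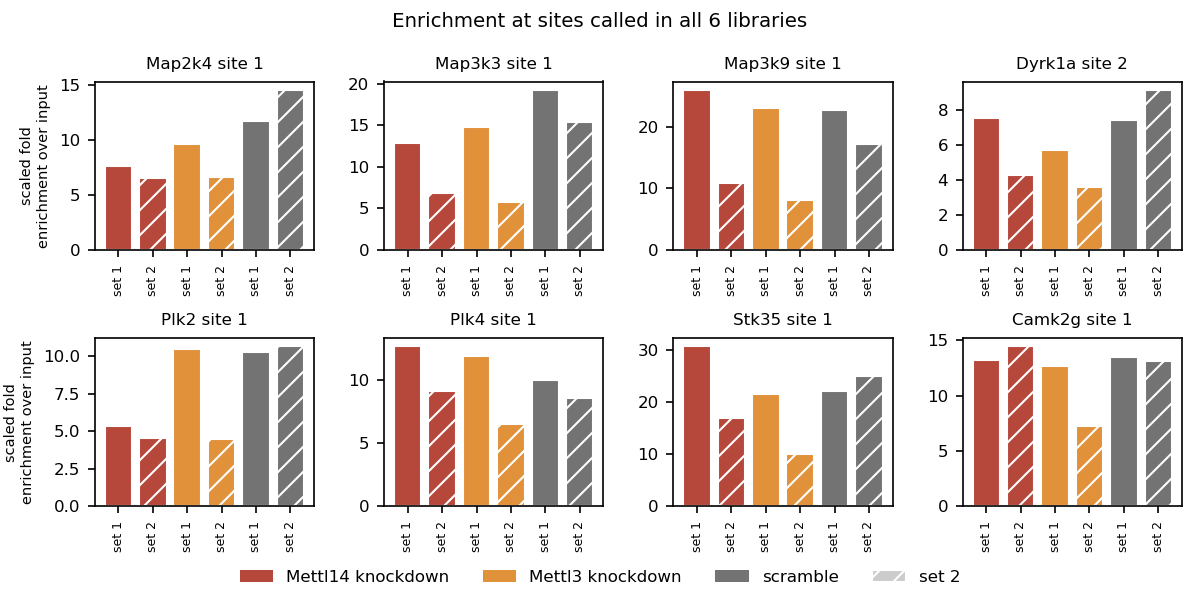
Scaled fold enrichment over input, as deposited, at 8 sites with a peak in all 6 libraries: Mettl14 knockdown (red), Mettl3 knockdown (orange) and scramble (grey), the highest peak where a library had several, with set 2 hatched and each axis starting at 0. All 4 knockdown bars lie below both scramble bars for Map2k4 and Map3k3, whereas Plk4 and Stk35 have their highest bar in Mettl14 knockdown set 1.

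Of the cyclin-dependent kinases, 9 of 28 annotated Cdk symbols were listed, 2 of them on the list of partner proteins. Of the 7 listed in all 4 tables, 4 were lower in each, against 25.0% of all such genes: Cdk10, Cdk17, Cdk19 and Cdk9. The cell-cycle kinases proper were not among them, since Cdk1, Cdk2, Cdk4 and Cdk6 have no listed peak in the tables used here. Cdk9 is the kinase of the elongation factor P-TEFb. Its peak spans the stop codon and had 4.35 in Mettl14 knockdown set 1 and none in Mettl14 knockdown set 2, 4.49 and 2.59 after Mettl3 knockdown, against 5.55 and 4.80 in scramble, in the authors' deposited tables. These values are low, the knockdown peaks rest on 309, 329 and 304 tags, and the log2 change of -0.89 in Mettl3 knockdown set 2 becomes 0.03 with the table median at 0.

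Cdk19, a kinase of the Mediator complex, held a peak just past the stop codon on 63 tags in either scramble library. It was lost in 3 tables, and in Mettl3 knockdown set 2 it had 7.07, against 21.8 in scramble, in the authors' deposited table. The peak of Cdk17, a kinase of the PCTAIRE group, was lost in all 4 tables. It spanned the stop codon, with its centre in the 3′ UTR, and had 120 and 76 tags in the scramble libraries at a false discovery rate of 0.14 and 5.19% in the authors' deposited tables. The peak of Cdk10 was also lost in all 4 tables, but its scramble enrichment was only 5.44 and 8.61, at a false discovery rate of 6.11 and 4.88% in the authors' deposited tables. The same peak was assigned to Gm20388 too.

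The transcription kinases Cdk12 and Cdk13, which act on RNA polymerase II, carried several sites that did not move together. Cdk12 site 3, over the stop codon of the transcript used for it, was lost in all 4 tables from 157 and 162 scramble tags, at enrichments of 5.41 and 7.94 and a false discovery rate of 8.50 and 4.22% in the authors' deposited tables. Its site 1, over the start of the coding sequence, was called in all 6 libraries, and the authors' deposited tables give log2 changes of 1.17 after Mettl14 knockdown and 1.63 after Mettl3 knockdown in set 1. Those knockdown peaks are narrow and overlap only the 5′ end of a much wider scramble peak, so the values compare different stretches, also where Cdk12 is named above among the sites in all 6 libraries. In set 2 it was read as 2 peaks, with log2 changes between -0.77 and 0.00 in the authors' deposited tables. Cdk13 had 3 sites, each called in all 6 libraries. At its coding site 2 the enrichment was 5.48 and 6.30 after Mettl14 knockdown and 10.6 and 3.76 after Mettl3 knockdown, against 5.77 and 6.14 in scramble, in the authors' deposited tables, so that the 2 Mettl3 knockdown libraries lie on either side of scramble.

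The Hippo pathway is a chain in which STK4 (MST1) activates LATS1 and LATS2, with STK38 and STK38L as LATS relatives. Both annotated Lats genes were listed, but their sites agreed poorly between the sets. Lats2 sites 1 and 2, in the coding sequence, had scramble peaks in set 1 only. There Mettl14 knockdown gave log2 changes of -1.21 and -0.61 and they were lost after Mettl3 knockdown, whereas in set 2 they counted as new with both knockdowns, on 49 to 61 tags, in the authors' deposited tables. All 4 Lats2 sites also lie on an exon of Gm49361 on the same strand. Lats1 site 2 had 22.5 in Mettl14 knockdown set 1 and no peak in Mettl14 knockdown set 2, and 169 and 12.9 after Mettl3 knockdown, against 22.8 and 29.2 in scramble, in the authors' deposited tables. The value of 169 gives the log2 change of 2.89, the highest of any shared kinase pair, on a peak of 47 tags. Lats1 site 1 was lost in Mettl14 knockdown set 2 and in both sets of Mettl3 knockdown.

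Stk38l (NDR2) was lower in all 4 tables. It held 2 peaks side by side in both scramble libraries, 1 over the stop codon and 1 in the 3′ UTR, of which 1 was lost in Mettl14 knockdown set 1, both in Mettl14 knockdown set 2, none in Mettl3 knockdown set 1 and 1 in Mettl3 knockdown set 2. The shared ones had log2 changes of -1.27 in Mettl14 knockdown set 1 and -1.01 in Mettl3 knockdown set 2 in the authors' deposited tables. In Mettl3 knockdown set 1 a single peak spanned both, at 19.5, against 38.9 and 27.4 for the pair of scramble peaks in the authors' deposited table. Its relative Stk38 (NDR1) was lost in Mettl14 knockdown set 2 alone, and elsewhere had 7.42 in Mettl14 knockdown set 1 and 8.93 and 4.01 after Mettl3 knockdown, against 7.10 and 8.63 in scramble, in the authors' deposited tables. Stk4 and Stk11 (LKB1, the upstream kinase of AMPK and of the Mark family) had a scramble peak in set 1 only. Stk10, a kinase of lymphocytes and the cytoskeleton, was higher in both sets after Mettl3 knockdown, where the authors' deposited tables give a log2 change of 0.68 in set 1 and a new peak on 31 tags in set 2. The set 1 knockdown peak had fewer than 20 tags. After Mettl14 knockdown the same Stk10 peak was lost in set 1, from 54 scramble tags, and new in set 2, on 28 tags. Stk35 kept its coding peak in all 6 libraries, with 30.7 and 17.0 after Mettl14 knockdown and 21.5 and 10.1 after Mettl3 knockdown, against 22.0 and 24.9 in scramble, in the authors' deposited tables.

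Of the mitotic kinases, Plk4, the master kinase of centriole duplication, was the only kinase-family gene higher in both sets after Mettl14 knockdown (7.55% of all genes listed in both sets were). Its coding peak had 12.7 and 9.12 after Mettl14 knockdown, against 10.0 and 8.55 in scramble, in the authors' deposited tables. In Mettl3 knockdown set 1 it was called as 2 peaks, at 8.19 on 80 tags and 11.9 on 71 tags, which lie on either side of the scramble value, and in Mettl3 knockdown set 2 it had 6.51 in the authors' deposited tables. The Mettl14 knockdown excess of 0.09 in set 2 (log2) is small, and Mettl3 knockdown set 2 lies below scramble. Higher in both sets after Mettl3 knockdown were 2 genes, Mapk14 and Stk10, against 5.81% of all. Plk2, a stress-induced polo-like kinase, kept its peak past the stop codon in all 6 libraries. It had 5.34 and 4.58 after Mettl14 knockdown and 10.5 and 4.51 after Mettl3 knockdown, against 10.3 and 10.7 in scramble, in the authors' deposited tables. As deposited, Mettl3 knockdown set 1 is thus the 1 knockdown library at the scramble level. With the table medians at 0 all 4 knockdown values of Plk2 lie below both scramble values. Nek9, a kinase of spindle assembly and the 1 listed gene of 11 annotated Nek symbols, kept its peak in Mettl14 knockdown set 1 (10.7, against 9.10 in scramble) and lost it in the other 3 of the authors' deposited tables.

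The Dyrk family, dual-specificity kinases that autophosphorylate on tyrosine, was listed almost whole, with 4 of 5 annotated symbols. Dyrk1b (MIRK) lost its peak in all 4 tables. That peak lay over the stop codon, 984 nt wide in scramble set 1, and had 104 and 105 tags and a fold enrichment of 14.0 and 9.24 in the scramble libraries, at a false discovery rate of 0.19 and 3.97% in the authors' deposited tables. Its close relative Dyrk1a kept both of its sites in all 6 libraries. At site 2, in the 3′ UTR, Dyrk1a had 7.58 and 4.30 after Mettl14 knockdown and 5.73 and 3.58 after Mettl3 knockdown, against 7.44 and 9.20 in scramble, in the authors' deposited tables. Dyrk1a site 1, before the stop codon, had 10.9 and 8.16 after Mettl14 knockdown and 16.0 and 7.36 after Mettl3 knockdown, against 16.4 and 10.3 in scramble, in the authors' deposited tables. The 2 relatives therefore lay at opposite ends of the range of fates. Dyrk2 and Dyrk3 each kept a wide coding peak in all 6 libraries, at log2 changes between -1.01 and 0.34 in the authors' deposited tables.

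The Wnk kinases, regulators of ion transport, held few peaks. Of 5 scramble peaks in set 1 and 4 in set 2, 4 and 4 were lost after Mettl14 knockdown and 3 and 4 after Mettl3 knockdown, where 39.0 and 41.2% and 41.0 and 36.6% of all gene-assigned scramble peaks were. The genes were Wnk1, Wnk2 and Wnk3-ps (the older symbol of Wnk3). These peaks were thin. Wnk2 site 2 rested on 21 and 19 scramble tags and Wnk3-ps site 2 on 24 and 33, at false discovery rates of 5.67 and 5.93% and of 2.98 and 4.32% in the authors' deposited tables. The wide Wnk1 coding site 2, seen in set 1 only, was kept on 310 tags after Mettl14 knockdown and on 318 tags after Mettl3 knockdown in the authors' deposited tables. Mark1 (a microtubule affinity regulating kinase) lost its coding peak in 3 tables and had a log2 change of 0.70 in Mettl3 knockdown set 1 in the authors' deposited table. Ulk1, the kinase that starts autophagy, was listed in set 1 only, with 6.24 after Mettl14 knockdown and 6.80 after Mettl3 knockdown, against 4.56 in scramble, in the authors' deposited tables.

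Among the calcium and lipid regulated kinases, the 2 listed subunits of CaM kinase II differed. Camk2b lost its 3′ UTR peak in all 4 tables, from 138 and 162 scramble tags and an enrichment of 7.32 and 11.5, at a false discovery rate of 7.43 and 1.19% in the authors' deposited tables. Camk2g kept its 3′ UTR peak in all 6 libraries, with 13.2 and 14.5 after Mettl14 knockdown and 12.7 and 7.23 after Mettl3 knockdown, against 13.5 and 13.1 in scramble, in the authors' deposited tables. Which library stands apart depends on the scaling. As deposited it is Mettl3 knockdown set 2, with a log2 change of -0.85, while with the table medians at 0 the changes were 0.03 and 0.75 after Mettl14 knockdown and -0.31 and 0.06 after Mettl3 knockdown. Prkcz, the atypical protein kinase C of cell polarity, lost its peak around the stop codon and 3′ UTR in all 4 tables, from 118 and 79 scramble tags at an enrichment of 16.5 and 14.2, with false discovery rates of 0.13 and 4.34% in the authors' deposited tables. Camkk1, an upstream kinase of CaM kinases, was kept in set 1 and lost in set 2 of both knockdowns. The 2 Camk4 peaks, seen in scramble set 2 alone, touch no exon of the gene.

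Peaks per gene were slightly more in the kinase families than in other listed genes in each of the 6 libraries. Genes with a peak held 1.38 and 1.39 peaks on average in the Mettl14 knockdown libraries, 1.41 and 1.34 in the Mettl3 knockdown libraries and 1.42 and 1.43 in the scramble libraries. For other listed genes these means were 1.34 and 1.27, 1.30 and 1.27, and 1.37 and 1.27. Of the kinase-family genes with a peak, 28.2 and 32.1% held 2 or more after Mettl14 knockdown, 35.9 and 22.9% after Mettl3 knockdown and 30.9 and 31.9% in scramble, against 25.7 and 20.4%, 23.1 and 20.4%, and 26.9 and 21.1% of other listed genes. The number of kinase-family genes with a peak was 39 and 28 after Mettl14 knockdown and 39 and 35 after Mettl3 knockdown, against 55 and 47 in scramble. Sites were single in 39 genes, 7 genes had 3 sites and Lats2 alone had 4.

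Most kinase sites lay in coding sequence or the 3′ UTR. By the centre of the site, 44 of 92 lay in coding sequence, 24 in the 3′ UTR, 11 within 100 nt of the stop codon and 7 in the 5′ UTR, while 6 had their centre outside the exons of the transcript used. The stop codon itself was within 39.2 and 40.6% of the kinase-family scramble peaks on exons in sets 1 and 2, against 42.6 and 43.7% for other genes. Sites in no scramble library had a median centre 519.5 nt before the end of the stop codon, sites in all 6 libraries 711.5 nt before it, and the 10 sites in both scramble libraries only a median 44 nt past it. Of those 10, 5 had their centre in the 3′ UTR, 4 in coding sequence and 1 in the stop codon window. Of the 24 placed sites in all 6 libraries, 15 were in coding sequence. No value over the sites of all genes stands beside these medians and counts. Peak by peak the split of the kinase-family sites was weaker. In set 1, 22.7% of the kinase-family scramble peaks lost with both knockdowns and 25.6% of those kept with both lay in the 3′ UTR, and in set 2, 33.3 and 19.4%. In coding sequence lay 45.5% of the lost and 53.8% of the kept ones in set 1, and 41.7 and 61.3% in set 2. Other genes had the same order there, with 39.2 and 55.8% in set 1 and 42.5 and 63.4% in set 2. In the 3′ UTR lay 23.6% of the lost and 23.8% of the kept peaks of other genes in set 1, and 23.2 and 19.2% in set 2.

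**Figure D5:**
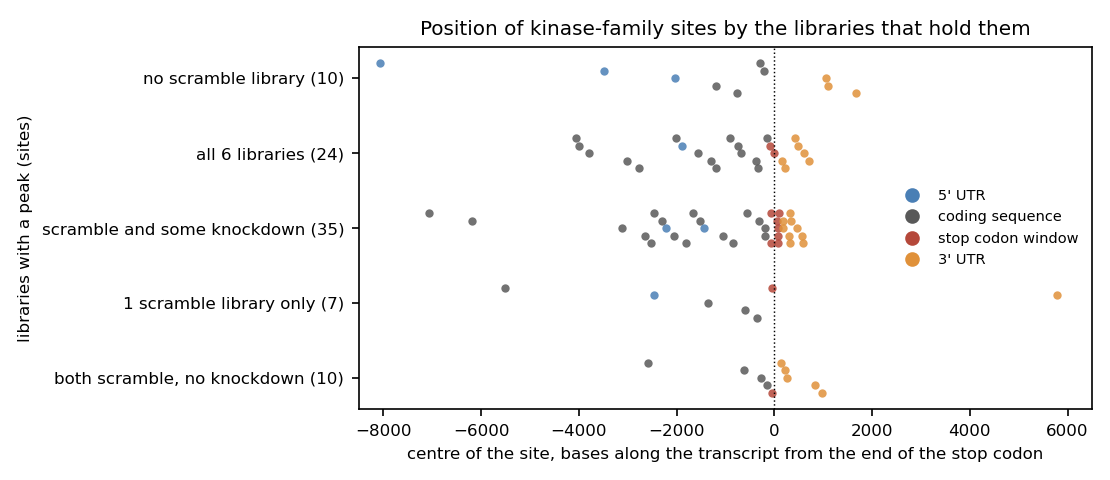
Centre of each kinase-family site in bases along its transcript from the end of the stop codon (0), by the libraries that hold a peak there (rows, with the number of sites that could be placed), coloured by region. Sites in both scramble libraries and no knockdown library (bottom row) have a median of 44 and those in all 6 libraries (second row) of -711.5, with overlapping ranges.

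In sequence, kinase-family scramble peaks held 1.95 and 1.98 GGACT per kb of exon in sets 1 and 2, against 1.69 and 1.62 for other genes. The looser consensus DRACH, which includes GGACT, came to 21.7 per kb in both sets, against 22.2 and 21.5. Only the mRNA strand was searched. A GGACT was present in 57.9% of the kinase-family peaks lost with both knockdowns in set 1 and in 81.6% of those kept with both, and in set 2 in 59.1 and 83.3%. Other genes showed the same order, with 54.0 and 72.6% in set 1 and 55.2 and 75.0% in set 2. Per kb of exon the lost kinase peaks held no fewer, with 2.40 GGACT in lost and 1.87 in kept peaks in set 1, and 2.18 and 2.06 in set 2. Lost kinase peaks were narrower, with a median of 566 nt in set 1 and 545.5 nt in set 2, against 928 nt and 844 nt for kept ones. The part of width in these shares was not tested.

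Kinases outside the name rule and direct regulators were set beside these families. Of 133 other serine/threonine kinases, 69 were listed, and 13 of the 48 listed in all 4 tables were lower in all 4, near the 25.0% of all genes, among them Mtor and Wee1. Their scramble peaks were lost at 29.5 and 40.3% after Mettl14 knockdown (39.0 and 41.2% of all) and at 35.9 and 33.9% after Mettl3 knockdown (41.0 and 36.6% of all). Of 25 cyclins and CDK inhibitors, 8 were listed, and Cdkn2c (an inhibitor of CDK4 and CDK6) was the 1 gene of 4 in all tables that was lower in each (25.0% of all genes were), its peak of 29 and 37 scramble tags being lost each time in the authors' deposited tables. Of 10 MAPK phosphatases, which switch MAP kinases off, 7 were listed, and 4 of the 6 in all 4 tables were lower in each, against the same 25.0%: Dusp1, Dusp16, Dusp5 and Dusp6.

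The phosphatase peaks were mostly kept at a lower enrichment. Dusp5 had 9.03 and 12.4 after Mettl14 knockdown and 11.1 and 7.86 after Mettl3 knockdown, against 18.2 and 21.0 in scramble, in the authors' deposited tables. Dusp6 had 5.89 in Mettl14 knockdown set 1, no peak in Mettl14 knockdown set 2, and 7.04 and 3.93 after Mettl3 knockdown, against 15.9 and 10.7 in scramble, in the authors' deposited tables. As deposited, each of these knockdown values lies below both scramble values, as at the Map3k3 and Map2k4 sites described above. Over all genes, 13.2% of the 2136 sites called in all 6 libraries did so, and the Dusp6 site is not called in all 6. With the table medians at 0 the knockdown and scramble values of Dusp5 overlap. As deposited, 8 of 9 and 5 of 5 phosphatase pairs were lower after Mettl14 knockdown and 7 of 8 and 5 of 5 after Mettl3 knockdown. Of all pairs, 55.5, 86.2, 35.7 and 93.9% were. With the table medians at 0 the phosphatase counts were 8 of 9, 5 of 5, 7 of 8 and 3 of 5. For all pairs they were then 2190 of 4313, 1425 of 2826, 2124 of 4153 and 1542 of 3090. The lists are small and were chosen with earlier results known, so their counts support nothing beyond these genes.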

How the data were processed

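The m6A immunoprecipitation peaks of 6 libraries were analysed from 4 tables deposited by the authors. Reads were processed against mm10 with Picard 1.74, TopHat2 2.0.6, CASAVA 1.8.2, Bowtie 0.12.7, cutadapt 1.1 and SAMtools 0.1.18, per the submitters' processing notes, which give no roles. Peaks came from MACS per library against its own input, per the file headers. Per the file headers the tables hold tag counts, the fold enrichment over input, a scaled enrichment ratio, a signed scaled fold difference (a score), and the false discovery rate in percent (at most 9.99). Library totals are not in these values, so depth is known only as tags per peak (7 to 394 for kinase peaks) and as peaks per library (5717 and 4367 with Mettl14 knockdown, 5087 and 4577 with Mettl3 knockdown, 7886 and 5438 in scramble). Scramble tags are given only where a peak was lost in a table.

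Peaks overlapping by at least 1 nt on a strand counted as shared. Log2 changes came from the deposited signed fold. Peaks were placed on GENCODE M21 (GRCm38) transcripts, taking the one with most exonic overlap. All 61 members were matched. No test was fitted, since each table holds 1 library per condition. Named genes were those with most scramble peaks in each family, up to 10 lower in all 4 tables, those with every scramble peak lost, and the 5 with most peaks kept. Others were chosen after their values were seen. Members, lists and this rule were chosen with earlier results of these data known. Alternatives were another overlap, filter or scaling and each set alone. Functions were tested on simulated data. Python 3.11.15, pandas 2.3.3 and numpy 2.4.6 were used.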

Additional observations from a re-analysis of the deposited data

How the results depend on the processing

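No paired analysis was possible because enrichments are listed only where a peak was called, so no model could be fitted across libraries. Each log2 change is itself a comparison within a set. Counts and shares lost have no sign to reverse. They could only grow or shrink, and some did, as given below. The median log2 changes, as means over sets, kept their sign in all alternatives but 1. Values of single tables could still change sign. The median in Mettl14 knockdown set 1 was -0.06 as deposited and 0.08 without the constant. Single peaks of Map3k2, Map3k13 and Cdk9, among others, changed sign with the table median at 0. Kinase pairs lower then went from 29 to 25 of 51 and from 28 to 19 of 33 after Mettl14 knockdown (sets 1 and 2). After Mettl3 knockdown they went from 22 to 28 of 49 and from 41 to 25 of 42. Over all pairs, 2190 of 4313, 1425 of 2826, 2124 of 4153 and 1542 of 3090 were then lower, in the same order of tables. The 1 exception was set 1 only after Mettl3 knockdown. There the median log2 change of shared kinase peaks was 0.12, against -0.44 as the mean of both sets and -1.01 with set 2 only. With Mettl14 knockdown it ran from -0.68 to -0.06 over single sets. Of the mean share of scramble peaks lost after Mettl3 knockdown (39.9%), requiring that at least 50% of a scramble peak be covered gave 43.8%, and keeping only peaks at a false discovery rate of at most 5% gave 33.0%. Under that filter a lost scramble peak was dropped by its own false discovery rate, and a kept one by that of its knockdown peak. Lost and kept peaks were thus filtered on different libraries, and the shares are not like for like. The filter also gave 1.29 peaks per gene over the 4 knockdown libraries in place of 1.38. Genes higher in both sets after Mettl14 knockdown numbered 1 as deposited, 3 without the scaling constant and 4 with the median of all shared peaks at 0. With Mettl3 knockdown, 2 were higher as deposited and 1 with peaks of at least 20 tags only. A single set calls more genes by construction, since a call in both sets asks for 2: between 34 and 39 lower and between 6 and 14 higher after Mettl14 knockdown, and between 30 and 44 lower and between 5 and 13 higher after Mettl3 knockdown. Genes lower in all 4 tables numbered 15 as deposited and between 10 and 16 in the alternatives. At a false discovery rate of at most 5% they were 10, of which 8 were among the 15. Camk2b, Cdk10, Cdk17, Cdk19 and Map3k2 were then lower in 2 tables and Map2k3 and Map2k4 in 3. Depth limits the peaks of few tags, and since no library totals or values over common regions are in the tables, a lost peak means no called peak, not the absence of methylation. Fewer modified transcripts and less of the transcript cannot be told apart.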
